A study of Gallus gallus with 18 samples.

Results

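The genes described here are 56 genes of the extracellular matrix and of its proteases, out of 17108 chicken genes in the count table, 5824 of which carry a symbol. They were chosen by name: collagen chains (COL), laminin chains (LAMA, LAMB, LAMC), matrix metalloproteinases (MMP), their tissue inhibitors (TIMP), ADAMTS and ADAMTS-like (ADAMTSL) genes, lysyl oxidases (LOX, LOXL), fibulins, fibrillins, fibronectin, decorin (DCN), lumican (LUM) and biglycan. A gene was taken wherever such a symbol stood in the study's feeding lists or tissue-specific lists and its Ensembl identifier was in the table. The feeding lists gave 46 members and the tissue lists 23, of which 13 were in both. The copy of the feeding lists used here holds the genes with the smallest feeding p-values in each tissue (32 members from adipose, 14 from liver and 15 from ovary), so that membership rests in part on the same libraries. It has 1998 rows for adipose, 1998 for liver and 1230 for ovary, far more genes than the study called at its FDR threshold. A place on a feeding list is therefore not a feeding call of the study. By role the members were 4 fibrillar collagens, 7 basement membrane collagens, 6 laminin chains, 9 beaded filament, FACIT (fibril-associated) and other collagens, 5 fibulin, fibrillin and small proteoglycan genes, 5 lysyl oxidases, 8 MMPs, 2 TIMPs, 8 ADAMTS proteases and 2 ADAMTSL genes.

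The libraries came from 6 Arbor Acres broiler breeder hens, a strain selected for meat yield, killed at 30 weeks of age. The tissues sequenced from each hen were ovary (ovarian stroma with small follicles), adipose (abdominal fat) and liver. A library is named by a letter for the tissue (M for ovary, F for adipose, G for liver) and the number of the hen. In ovary M1721, M1723 and M1725 came from hens fed ad libitum from 22 weeks of age, and M1724, M6709 and M6710 from hens that had stayed on the restricted ration of the breeder guide, all in individual cages after the same rearing. F1721 and G1721 are the fat and liver of the hen of M1721, and so on. Values are listed below in that order of hens.

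The 18 libraries held 14793554 to 23261748 counted reads. The 5 most abundant genes took up to 43.6% of the reads of a liver library, and levels are therefore given as normalised CPM, read counts scaled to CPM after TMM scaling over all 18 libraries, with TMM factors of 0.424 to 0.499 in liver, 1.10 to 1.33 in adipose and 1.59 to 1.79 in ovary. Marker genes fitted the tissue labels: the adipocyte genes PLIN1, FABP4, ADIPOQ, LPL, CIDEA and CIDEC summed to 11120.5 normalised CPM or more in every adipose library and to 635 or less in every other library, and the granulosa and oocyte genes FOXL2, AMH, FSHR, GDF9 and BMP15 were detected in every ovary. The ovary markers were not confined to ovary libraries, as given for adipose below. Hens are separate animals, and feeding p-values within a tissue set the group difference against the spread between hens, 3 in each group. Each hen gave a library to every tissue, and the main tissue and interaction fits treated those libraries as independent. In bulk tissue, fewer cells of a type and less RNA per cell cannot be told apart.

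The extracellular matrix is the protein scaffold that cells secrete around themselves. Fibrillar collagens form its load-bearing fibres, lysyl oxidases cross-link them, type IV collagens and laminins build the basement membranes under epithelia and around adipocytes and follicles, and small proteoglycans such as decorin space the fibrils. Secreted MMPs and ADAMTS enzymes cut these proteins and TIMPs block the enzymes, and in the ovary this turnover is known for its part in follicle growth and in the rupture of the follicle wall at ovulation. The roles given below are those known from mammals.

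Most members had their lowest mean level in liver. Liver had the lowest mean level for 40 of the 56 members, ovary for 7 and adipose for 9. The choice of members favoured that order. The tissue lists gave 15 from ovary, 7 from adipose and 1 from liver, and the feeding lists gave 15, 32 and 14. The share of all genes lowest in liver was not counted. Adipose had the highest mean for 30 members and ovary for 24, and only ADAMTS13 and FBLN1 were highest in liver. The 6 libraries of the highest tissue lay wholly above those of the next tissue for 12 of the 24 ovary genes, for 8 of the 30 adipose genes and for ADAMTS13 in liver, so for most members the first 2 tissues in the order overlapped. Most of the genes that lay wholly above were members through the tissue lists, which chose them for their level. The share of all genes that lay so was not counted, and these counts are a description. The order of ovary and adipose depends on the scaling between tissues, as given with the tests below.

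**Figure D1:**
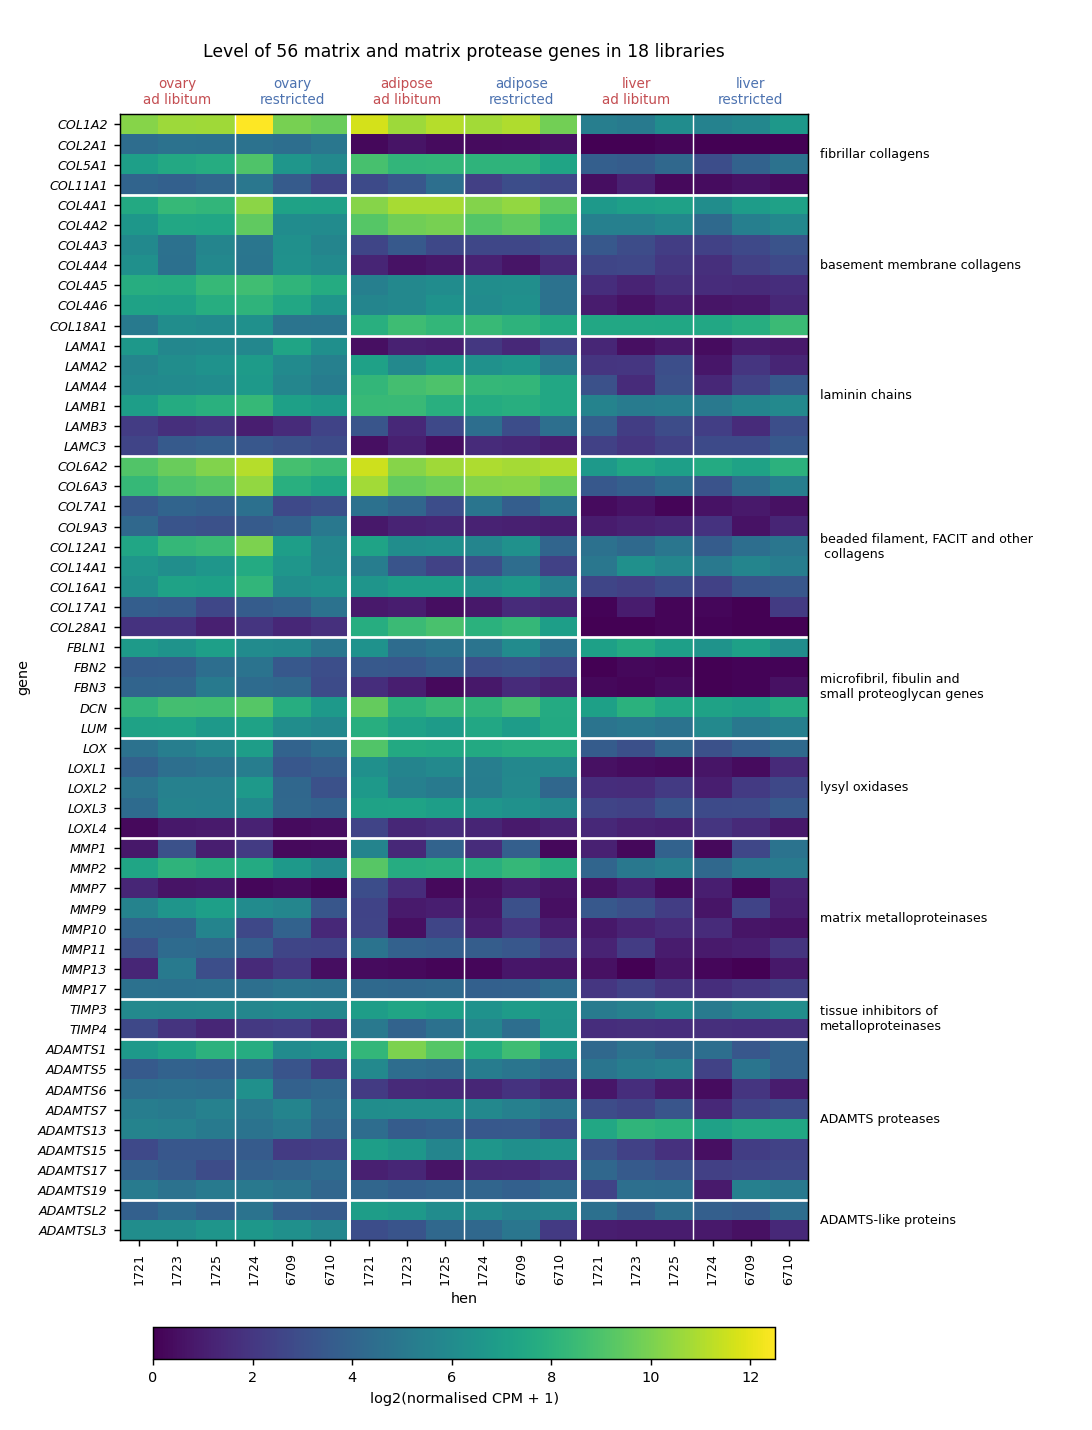
Heat map of the level of each of the 56 genes (rows, grouped by role) in each of the 18 libraries (columns, hen numbers, grouped by tissue and feeding), as log2(normalised CPM + 1). The liver columns are the darkest for 40 genes, COL28A1 is bright in adipose alone, COL2A1 and LAMA1 are bright in ovary alone, and hen M1724 stands out among the ovary columns for COL1A2, COL4A1, COL6A2 and COL12A1.

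COL1A2, a chain of type I collagen and the main fibre of connective tissue, averaged 2009 ± 1881 normalised CPM in ovary, 1967 ± 775 in adipose and 56.5 ± 24.8 in liver (SD, n = 6 hens each). Its ovary and adipose levels overlapped, and liver lay below both. COL2A1, the fibrillar collagen of cartilage, averaged 24.6 ± 2.97 normalised CPM in ovary against 0.363 ± 0.141 in adipose and 0.0197 ± 0.0483 in liver (SD, n = 6 hens each). COL28A1, a short collagen with von Willebrand factor domains, had the widest contrast between its first and second tissue, with 293 ± 123 normalised CPM in adipose, 2.15 ± 0.634 in ovary and 0.0345 ± 0.0542 in liver (SD, n = 6 hens each). Both COL2A1 and COL28A1 are members through the tissue lists, so their contrasts describe the lists and were not tested.

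Of the type IV collagen chains COL4A1 and COL4A2 are members through the feeding lists, and COL4A3 to COL4A6 through the ovary tissue lists alone. For these 4 the place of ovary as the highest tissue was favoured by the choice and is a description. In mammals the chains are encoded in head-to-head pairs, COL4A1 with COL4A2, COL4A3 with COL4A4 and COL4A5 with COL4A6, and in each pair the RefSeq annotation (GRCg7b) places no other protein-coding gene between the partners. COL4A1, of the network present in nearly all basement membranes, averaged 400.3 ± 444 normalised CPM in ovary, 1363 ± 461 in adipose and 118 ± 27.8 in liver (SD, n = 6 hens each). COL4A3 with COL4A4 and COL4A5 with COL4A6 had their highest level in ovary: COL4A4 averaged 53.6 ± 23.3 normalised CPM there against 1.07 ± 0.499 in adipose and 4.27 ± 1.38 in liver, and COL4A5 averaged 277 ± 77.8 against 54.6 ± 18.1 and 1.95 ± 0.303 (SD, n = 6 hens each).

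The COL4A1 to COL4A2 ratio stayed between 1.77 and 2.2 over the 12 ovary and adipose libraries, in which COL4A1 itself spanned 13.2-fold. COL4A3 to COL4A4 ran from 0.806 to 1.06 in the 6 ovaries, although COL4A3 spanned 3.13-fold there. The COL4A5 to COL4A6 ratio differed between tissues, at 1.41 to 2.28 in ovary and 0.803 to 1.09 in adipose. Other ratios ran more widely than the levels behind them: COL4A3 to COL4A4 ran from 3.61 to 19.2 in adipose, where COL4A3 spanned 2.01-fold, and COL4A5 to COL4A6 from 1.28 to 3.29 in liver, both at low levels. COL4A1 to COL4A2 ran from 2.5 to 3.79 in liver. ADAMTS1 and ADAMTS5, neighbours on chromosome 1, had ratios of 5.22 to 50.2 over the same 12 libraries. These ratios are of read counts not divided by gene length, so only their spread can be read, and no test was made of them.

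Differences between tissues were tested for the 33 members that the tissue lists did not choose. The 23 left out were 15 from ovary lists, 7 from adipose lists and 1 from a liver list. Of those 23, 13 were higher and 6 lower in ovary than in adipose by the thresholds below. The balance of ovary against adipose in the counts below therefore rests in part on that exclusion. Ovary against adipose gave 6 members higher and 13 lower in ovary at an FDR below 0.1 and a change of at least 2-fold (edgeR quasi-likelihood test), where 21.9% of all 13426 genes were higher and 20.4% lower. That split depends on the scaling: with library size alone it was 10 higher and 9 lower, while the median log2 difference of all genes was 0.46, against -0.04 with TMM. Ovary against liver gave 22 higher and 4 lower in ovary, against 32.6% and 22.5% of all genes. Adipose against liver gave 20 higher and 3 lower in adipose, against 29.9% and 19.3%. Of the 56 members 22 did not pass the filter on low counts in liver, and for those the direction against liver was partly fixed by the filter. Among the 22 higher in ovary these were COL7A1, COL9A3, COL11A1, COL17A1, FBN2, LAMA4, MMP10, MMP11 and MMP13. Among the 20 higher in adipose they were COL7A1, COL11A1, FBN2, LAMA4 and MMP11. With library size alone the counts against liver became 27 higher and 0 lower in ovary and 28 higher and 2 lower in adipose. The median log2 difference of all genes was then 2.01 for ovary against liver and 1.52 for adipose against liver (0.16 for each with TMM). LAMB3, LOXL4 and ADAMTS5, lower in ovary than in liver with TMM, turned direction.

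The 6 members higher in ovary than in adipose were COL17A1, COL9A3, LAMC3, ADAMTS17, MMP13 and MMP10. COL17A1, a transmembrane collagen of epithelial anchoring junctions, averaged 13.1 ± 6.51 normalised CPM in ovary and 1.06 ± 0.56 in adipose (SD, n = 6 hens each). COL17A1 and MMP13 passed the filter on low counts through ovary alone, so that they had to be higher there, and no test is given for them. LOXL4, among the 13 lower in ovary, passed through adipose alone, so that its direction was partly fixed too. It passed in neither ovary nor liver, and MMP7, also among the 13, did not pass in adipose. COL9A3, a fibril-associated collagen best known from cartilage, differed by 3.61 ± 0.38 (SE) on the log2 scale, with FDR = 7.12e-07 (edgeR), and the laminin chain LAMC3 by 3.09 ± 0.32 (SE). Among the 13 that were lower in ovary, TIMP4, an MMP inhibitor, differed by -3.54 ± 0.36 (SE) and COL18A1, whose cleaved end is endostatin, by -2.55 ± 0.29 (SE). LAMA4, the laminin chain of vessel walls and adipocyte basement membranes, averaged 64.3 ± 23.0 normalised CPM in ovary and 343 ± 115 in adipose (SD, n = 6 hens each), with a log2 fold change of -2.38 ± 0.38 (SE). COL18A1 was also lower in ovary than in liver, at -2.11 ± 0.29 (SE), a difference that shrank to -0.28 with library size alone and then missed the threshold.

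COL6A3, a chain of the beaded filaments around cells, stood far apart between adipose and liver, at 5.91 ± 0.58 (SE) on the log2 scale, with 1079 ± 367 normalised CPM in adipose and 18.5 ± 11.7 in liver (SD, n = 6 hens each). COL6A2, its partner chain, had 3008, 1214 and 1696 normalised CPM in ad libitum hens, against 2002, 1771 and 2033 normalised CPM in restricted hens. In adipose COL6A2 did not separate the feeding groups, and hen F1721 had the highest level. LAMA4 had 309.5, 433 and 513 normalised CPM in ad libitum hens, against 316, 306 and 181 normalised CPM in restricted hens. Restricted hen F6710 was lowest for LAMA4, and the groups overlapped.

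Feeding was compared within each tissue. At an FDR below 0.1 no member passed edgeR's quasi-likelihood test in any tissue, out of 55 members tested in ovary, 50 in adipose and 34 in liver, and that test called 0 of 12871 genes in ovary (0.0%), 1 of 11914 in adipose (0.00839%) and 1 of 10339 in liver (0.00967%). At an unadjusted p below 0.05 there were 5 members in ovary, 14 in adipose and 8 in liver. The shares of all genes at that p were 4.85% in ovary (3.02% higher and 1.83% lower in ad libitum hens), 5.19% in adipose (2.0% and 3.19%) and 13.7% in liver (6.24% and 7.42%). DESeq2 called 0, 0 and 1 members in ovary, adipose and liver, beside 0.373%, 0.655% and 2.33% of all genes. The likelihood ratio test with gene-wise dispersions also called 0, 0 and 1, beside 0.186%, 0.739% and 1.41%, and the 1 was ADAMTS17 in liver both times. With trended dispersions it called 5, 6 and 4 members, beside 1.9%, 2.93% and 3.82%. Members that entered through a tissue's own feeding list made up 4 of the 5 in ovary, 12 of the 14 in adipose and 7 of the 8 in liver, so these counts describe the lists.

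**Figure D2:**
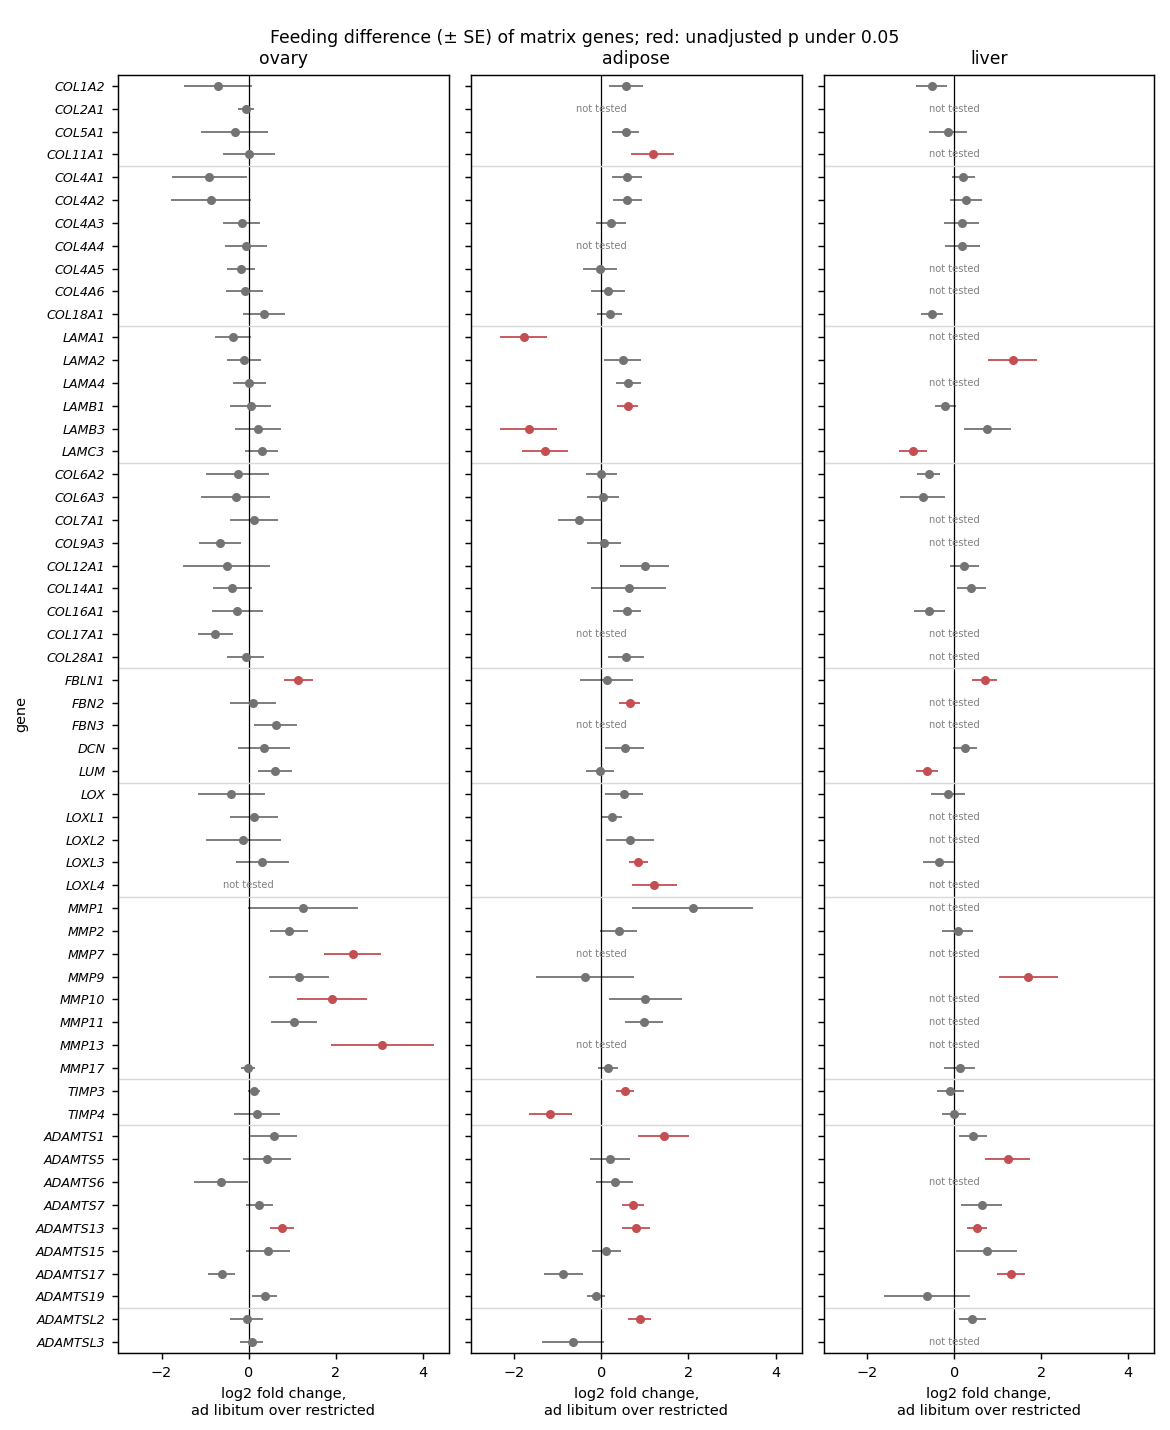
Log2 fold change of each gene between ad libitum and restricted hens (points, positive when higher in ad libitum hens, bars ± SE from edgeR) in ovary, adipose and liver, with genes grouped by role. Red points have an unadjusted p below 0.05: 5 in ovary, all positive, 14 in adipose, 10 positive and 4 negative, and 8 in liver, 6 positive and 2 negative.

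In ovary FBLN1 and most MMPs, 7 of 8 of which are members through the ovary feeding list, had higher mean levels in ad libitum hens, and the collagens were spread widely among restricted hens. The 5 ovary members at p below 0.05 were all higher in ad libitum hens: MMP7, MMP10, MMP13, ADAMTS13 and FBLN1. Apart from ADAMTS13, these entered through that list. Over all roles 30 of the 55 were positive, where 47.8% of all genes were. MMP1, MMP7 and MMP13 passed the filter on low counts through the ad libitum group only, so their direction was partly fixed by that filter, and the MMP values are a description.

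MMP13, a collagenase that cuts fibrillar collagen, had 1.55, 34.1 and 7.08 normalised CPM in ad libitum hens, against 1.84, 3.08 and 0.365 normalised CPM in restricted hens. Hen M1723 was far above the other 5, hen M1725 second, and hen M1721 lay among the restricted hens, so the groups overlapped. The log2 fold change was 3.07 ± 1.18 (SE), with FDR = 0.878, and the log2 fold change was 1.31 without hen M1723.

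MMP10, a stromelysin that cuts proteoglycans and activates other MMPs, had 15.1, 14.5 and 48.5 normalised CPM in ad libitum hens, against 5.45, 14.2 and 1.67 normalised CPM in restricted hens. The groups did not overlap, but restricted hen M6709 came close to ad libitum hen M1723, and hen M1725 was well above the rest. Its log2 fold change was 1.92 ± 0.80 (SE), with FDR = 0.878, and ran from 1.08 without hen M1725 to 2.91 without hen M6709.

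MMP7, matrilysin, a small epithelial MMP, was barely detected in ovary, with 1.55, 0.594 and 0.682 normalised CPM in ad libitum hens, against 0.17, 0.311 and 0.0608 normalised CPM in restricted hens. These levels rest on 2 to 55 reads a library and 115 in all, and 3 reads correspond to 0.0843 to 0.102 normalised CPM in ovary. The groups did not overlap, and the log2 fold change was 2.39 ± 0.65 (SE), with FDR = 0.878. MMP7, MMP1, MMP10 and MMP13 are paralogs that lie together on chromosome 1 in the RefSeq annotation, and how reads shared between them were counted is not given in the sources used here, so their values carry that uncertainty.

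The gelatinases followed the same order with wider overlap. MMP9, made chiefly by macrophages and granulocytes, had 47.8, 90.4 and 131 normalised CPM in ad libitum hens, against 63.5, 51.4 and 9.0 normalised CPM in restricted hens, a log2 fold change of 1.16 ± 0.69 (SE) with FDR = 0.878. Hen M1721 lay below restricted hens M1724 and M6709. MMP2, made by stromal cells, had 164, 278 and 230.5 normalised CPM in ad libitum hens, against 196, 107 and 62.5 normalised CPM in restricted hens, a log2 fold change of 0.93 ± 0.44 (SE) with FDR = 0.878. Hen M6710 was lowest for both, and hen M1721 was the only ad libitum hen below hen M1724 for MMP2.

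FBLN1, a fibulin of basement membranes and elastic fibres, had 112, 84.8 and 131 normalised CPM in ad libitum hens, against 64.6, 59.4 and 29.5 normalised CPM in restricted hens. Every ad libitum ovary was above every restricted one, with a log2 fold change of 1.14 ± 0.33 (SE) and FDR = 0.878. ADAMTS13, which cleaves von Willebrand factor, had 47.0, 44.6 and 34.5 normalised CPM in ad libitum hens, against 26.3, 33.5 and 16.7 normalised CPM in restricted hens. Its groups just separated, with hen M1725 close to hen M6709, and the log2 fold change was 0.77 ± 0.28 (SE) with FDR = 0.878. In all, 4 of 55 members had groups that did not overlap in ovary, FBLN1, ADAMTS13, MMP7 and MMP10, while 9.56% of all genes did, 4.85% with ad libitum hens higher.

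**Figure D3:**
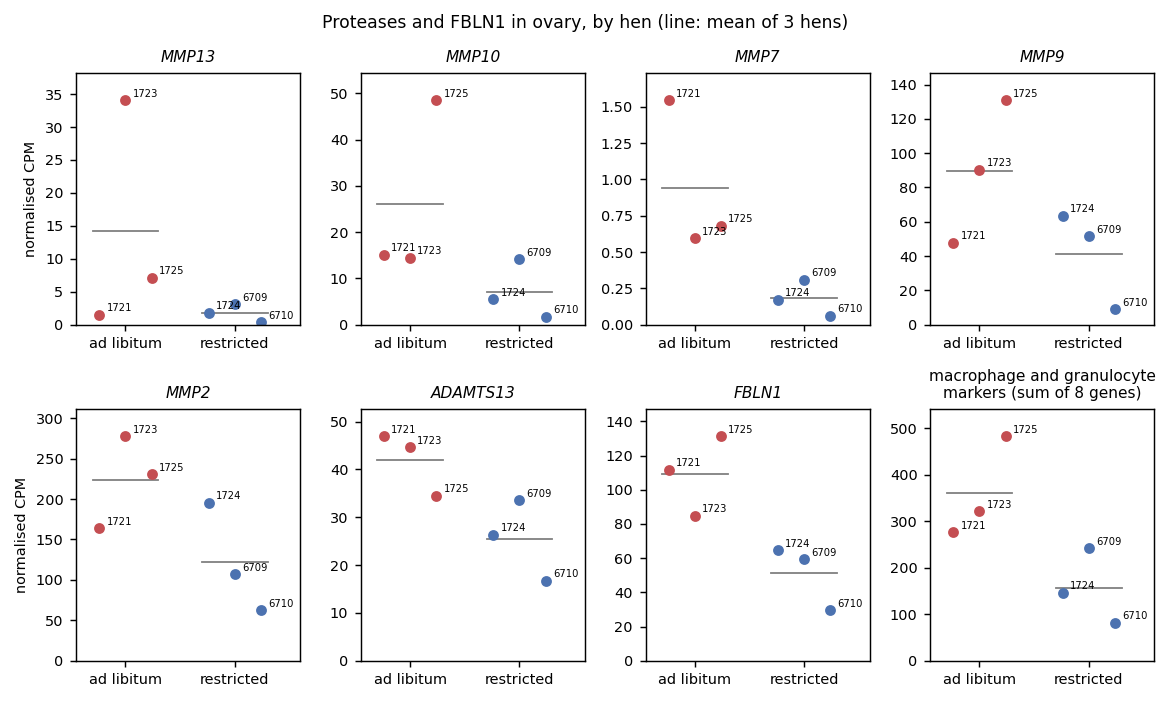
Level in ovary of 6 proteases, of FBLN1 and of the summed macrophage and granulocyte markers (normalised CPM, axes from 0) in each ad libitum hen (red) and restricted hen (blue), with hen numbers and a line at the mean of 3 hens. Hen M1723 is highest for MMP13 and MMP2, hen M1725 for MMP10, MMP9, FBLN1 and the marker sum, and hen M6710 is lowest in every panel.

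As a sum, macrophage and granulocyte markers were higher in every ad libitum ovary than in any restricted one. Of the 10 genes of that list 8 carried a symbol, all detected, and their summed level in ovary was 276, 321 and 483 normalised CPM in ad libitum hens, against 146, 242 and 81.2 normalised CPM in restricted hens. The groups of the sum did not overlap, and 6 of the 8 (SPI1, CTSS, CYBB, TLR4, CSF3R and CD36) were higher in ad libitum hens at an unadjusted p below 0.05, while MARCO and LYZ were not. Of all genes 4.85% were at that p, 3.02% higher in ad libitum hens. Over the 8 markers 7 log2 fold changes were positive and 1 was negative. Symbols of marker genes could be read only where the study's feeding or tissue lists named them. Markers were therefore chosen in part by their feeding p-values, and such counts are descriptions. Liver transcripts ALB, APOB, VTG2, FGB and FGG together had 427, 28.2 and 199 normalised CPM in ad libitum hens, against 74.2, 22.8 and 47.8 normalised CPM in restricted hens in ovary. Hen M1721 was highest and the groups overlapped. At an unadjusted p below 0.05, 3 of these 5 genes were higher in ad libitum hens, where 3.02% of all genes were. The part of either list in the protease values was not tested.

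The inhibitors TIMP3 and TIMP4 did not separate by feeding in ovary. TIMP3, an inhibitor that stays bound to the matrix, had 58.4, 56.7 and 58.4 normalised CPM in ad libitum hens, against 52.2, 59.8 and 54.1 normalised CPM in restricted hens. The 6 ovaries lay within a narrow range and the groups overlapped, with a log2 fold change of 0.12 ± 0.14 (SE). TIMP4 had 5.45, 2.66 and 1.53 normalised CPM in ad libitum hens, against 3.27, 3.59 and 1.79 normalised CPM in restricted hens, with overlapping groups and the highest value in hen M1721.

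MMP11, a stromelysin of stromal cells, had 7.61, 19.8 and 17.6 normalised CPM in ad libitum hens, against 12.8, 5.11 and 4.62 normalised CPM in restricted hens, with hens M1723 and M1725 above the rest. MMP17, a membrane-anchored MMP, was nearly level and ran from 22.8 to 27.5 normalised CPM over the 6 ovaries. MMP1 ran from 0.226 to 7.44 and was highest in hen M1723, as MMP13 was.

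ADAMTS1, which cuts the proteoglycan versican and is known for its part in ovulation in mammals, had 103, 150.3 and 257 normalised CPM in ad libitum hens, against 213, 64.6 and 76.8 normalised CPM in restricted hens. Restricted hen M1724 lay between hens M1723 and M1725, and the log2 fold change was 0.57 ± 0.54 (SE). ADAMTS17, of which mutations affect the eye and connective tissue in humans, ran the other way, with 13.9, 10.6 and 6.59 normalised CPM in ad libitum hens, against 13.8, 16.0 and 19.9 normalised CPM in restricted hens and a log2 fold change of -0.62 ± 0.30 (SE), FDR = 0.878. Its groups overlapped narrowly, at hens M1721 and M1724. ADAMTSL3, a secreted ADAMTS relative without protease activity, had 68.6, 69.9 and 91.2 normalised CPM in ad libitum hens, against 98.2, 75.2 and 52.5 normalised CPM in restricted hens and showed no order by feeding.

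In the collagens of the ovary restricted hen M1724 stood apart. COL1A2 had 1205, 1610.1 and 1697 normalised CPM in ad libitum hens, against 5781, 975 and 789 normalised CPM in restricted hens. Hen M1724 was above all ad libitum hens, and the other restricted hens were below all of them. The same order held for the fibrillar chain COL5A1, with 132, 183 and 215 normalised CPM in ad libitum hens, against 529, 93.5 and 58.6 normalised CPM in restricted hens, and for COL12A1, a collagen on the surface of type I fibrils, with 168, 318 and 372 normalised CPM in ad libitum hens, against 1060.4, 129 and 53.0 normalised CPM in restricted hens. The restricted ovaries thus spanned a wider range than the ad libitum ovaries for all 3 genes.

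COL4A1 and COL4A2 gave the same picture for basement membrane. COL4A1 had 195, 331 and 298 normalised CPM in ad libitum hens, against 1292, 144 and 142 normalised CPM in restricted hens. COL4A2 had 96.4, 177 and 168 normalised CPM in ad libitum hens, against 688, 66.2 and 64.5 normalised CPM in restricted hens. For both, hen M1724 was highest and hens M6709 and M6710 were lowest and nearly equal.

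The beaded filament chain COL6A2 had 547, 793 and 1137 normalised CPM in ad libitum hens, against 2222, 445 and 362 normalised CPM in restricted hens, and its partner COL6A3 had 332, 505 and 610.4 normalised CPM in ad libitum hens, against 1415, 237 and 172 normalised CPM in restricted hens. LOX, the lysyl oxidase that cross-links collagen and elastin, had 25.6, 40.0 and 51.4 normalised CPM in ad libitum hens, against 122, 14.6 and 21.5 normalised CPM in restricted hens. LOXL3, another cross-linking oxidase, had 19.3, 46.4 and 45.7 normalised CPM in ad libitum hens, against 60.3, 17.6 and 14.4 normalised CPM in restricted hens. In all 4 genes hen M1724 was highest and hens M6709 and M6710 were the lowest 2, so the restricted group enclosed the ad libitum group.

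**Figure D4:**
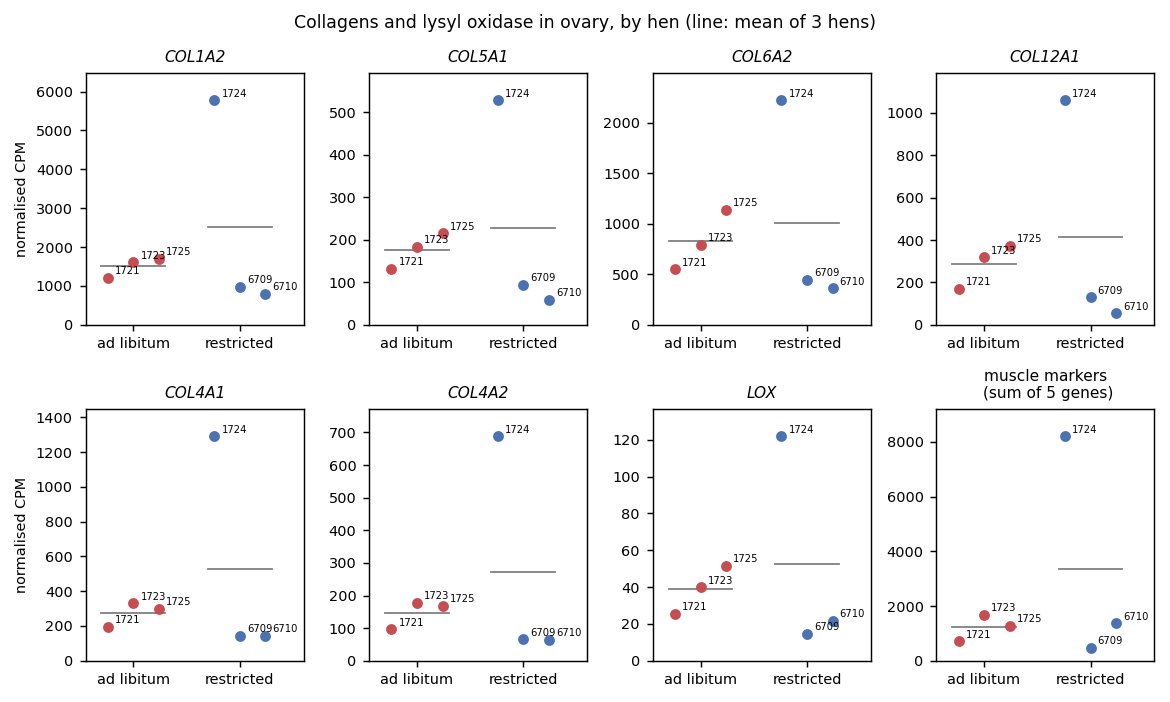
Level in ovary of 6 collagen chains, of LOX and of the summed muscle markers (normalised CPM, axes from 0) in each ad libitum hen (red) and restricted hen (blue), with hen numbers and a line at the mean of 3 hens. Hen M1724 is highest in every panel, and hens M6709 and M6710 lie below all ad libitum hens in the 7 gene panels but not in the muscle panel.

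Decorin, which binds and spaces collagen fibrils, had 294, 439.6 and 417 normalised CPM in ad libitum hens, against 597, 219.5 and 107 normalised CPM in restricted hens. Lumican, a related keratan sulfate proteoglycan, had 144, 150.1 and 104 normalised CPM in ad libitum hens, against 148, 68.4 and 53.3 normalised CPM in restricted hens. Hen M1724 was the highest of 6 for decorin but not for lumican. LAMB1, a laminin chain of most basement membranes, had 126, 207 and 246 normalised CPM in ad libitum hens, against 332, 134 and 112 normalised CPM in restricted hens, and LAMA4 had 60.9, 63.0 and 67.3 normalised CPM in ad libitum hens, against 106, 51.9 and 36.8 normalised CPM in restricted hens. Both laminins were highest in hen M1724 and lowest in hen M6710.

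Over the 55 members tested, hen M1724 had the highest ovary level for 29 and hen M6710 the lowest for 33, where 19.6% and 22.5% of all genes had those hens at those ends. Smooth and striated muscle markers stood apart in the same ovary. Of the 8 genes of that list 5 carried a symbol (DES, TAGLN, ACTA1, ACTC1 and MYLK), none was at 0, and their sum was 712, 1683 and 1275 normalised CPM in ad libitum hens, against 8211, 476 and 1371 normalised CPM in restricted hens. All 5 were highest in hen M1724. A list of fibroblast markers did not stand apart there, with 1097, 1301 and 1345 normalised CPM in ad libitum hens, against 1286, 840.1 and 751 normalised CPM in restricted hens. Cartilage markers were also highest in hen M1724, with 62.4, 99.5 and 80.5 normalised CPM in ad libitum hens, against 259, 23.4 and 76.2 normalised CPM in restricted hens, nearly all of it MATN3 in that hen, and so were epithelial and lung markers, with 385, 329 and 447 normalised CPM in ad libitum hens, against 595, 331 and 372 normalised CPM in restricted hens. Endothelial and pericyte markers were highest there too, with 551, 877 and 806 normalised CPM in ad libitum hens, against 938, 476 and 405 in restricted hens. So were adipocyte markers, at 230 normalised CPM. The sum of the ovary markers was lowest in hen M1724. It was 1146, 840 and 855 normalised CPM in ad libitum hens, against 649, 1243 and 1180 in restricted hens. The part of any of these markers in the collagen values was not tested.

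Some collagens did not share that order. COL17A1 had 12.1, 10.9 and 5.36 normalised CPM in ad libitum hens, against 11.6, 13.7 and 25.1 normalised CPM in restricted hens, and COL9A3 ran from 7.6 to 30.9 normalised CPM. Both were highest in hen M6710, and LAMA1 and COL4A3 were highest in hen M6709.

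The fitted feeding difference of the ovary collagens followed hen M1724. With all 6 hens 3 of the 20 collagens had a positive log2 fold change, among them COL18A1 at 0.36, and without hen M1724, an alternative chosen after the values were seen, 15 of 20 did. COL1A2 was -0.71 ± 0.78 (SE) with all hens and 0.84 ± 0.31 (SE) without hen M1724. COL4A1 was -0.90 ± 0.87 (SE) and 1.02 ± 0.28 (SE), and COL12A1 was -0.50 ± 1.0 (SE) and 1.71 ± 0.50 (SE). Among the cross-linking enzymes LOX was -0.39 ± 0.77 (SE) and 1.20 ± 0.33 (SE). Each of the 4 was negative with all hens and positive without hen M1724.

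Over all members, 30 of 55 were positive with all hens and 46 of 55 without hen M1724, where 51.5% of all genes were positive. At an unadjusted p below 0.05 there were 30 of 55 members without hen M1724, 29 of them higher in ad libitum hens and 1 lower, where 16.3% of all genes were at that p and 10.1% were at it and higher. The median log2 fold change of the 55 members was 0.90 without that hen and 0.04 with it. Hen M1724 had the highest ovary level for 29 of the 55, so leaving it out raised their fold changes by the choice itself. Only 2 restricted hens then remained, and the counts without hen M1724 are a description. No member passed an FDR of 0.1 in either fit, the smallest FDR being 0.298 without hen M1724 (edgeR). Leaving out hen M6710 instead gave 20 positive members and 2 at p below 0.05, beside 48.4% positive and 1.97% at that p among all genes.

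**Figure D5:**
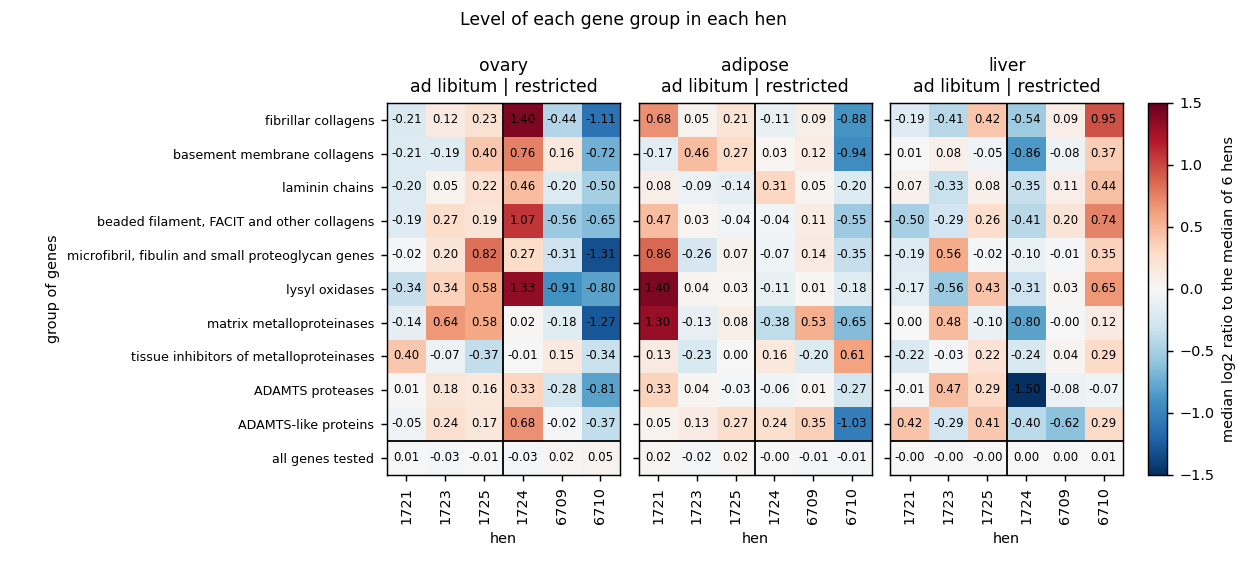
Median over the genes of each role of the log2 ratio of a hen's level to the median of the 6 hens of that tissue (printed in each cell; red above, blue below), in ovary, adipose and liver, with ad libitum hens left of the line and restricted hens right of it. In ovary hen M1724 reads 1.40 for fibrillar collagens and 1.33 for lysyl oxidases and hen M6710 reads -1.27 for MMPs, while the bottom row, all genes tested, stays near 0.

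In adipose, 39 of the 50 members tested had a positive log2 fold change, that is, a higher level in ad libitum hens, where 51.9% of all genes did. The median was 0.50 over the members and 0.01 over all genes. All 5 lysyl oxidases, all 3 fibrillar collagens tested and 5 of 6 basement membrane collagens were positive, and 3 of 6 laminins. Of the 50, 30 are members through the adipose feeding list. The direction rested partly on hen F1721, the highest of 6 for 22 members (19.9% of all genes). Without hen F1721 it was 29 of 50, where 47.4% of all genes were positive. Hen F6710 was the lowest for 26 members (29.3% of all genes), but without that hen 36 of 50 members were still positive. At p below 0.05 there were 16 members without hen F6709 and 5 without hen F1724 or hen F6710, beside 14.9%, 3.6% and 3.77% of all genes. Hen F6710 also had the largest sum of adipocyte markers, which was 15139.9, 12539.9 and 13097 normalised CPM in ad libitum hens, against 23128, 11120.5 and 27129 normalised CPM in restricted hens. Fibroblast markers were highest in that hen too, with 5741, 2803 and 3399 normalised CPM in ad libitum hens, against 4796, 3637 and 7283 normalised CPM in restricted hens. So were liver markers, at 789 normalised CPM. The part of these markers in the matrix values was not tested. Other markers stood apart in hen F1721. The ovary markers, 8 of 9 with a symbol, summed to 83.8, 6.68 and 7.4 normalised CPM in ad libitum hens, against 31.6, 13.2 and 10.1 normalised CPM in restricted hens, nearly all of it ZP3, the egg coat gene, in hen F1721. Cartilage markers, 4 of 6 with a symbol, summed to 169, 58.4 and 79.5 normalised CPM in ad libitum hens, against 97.0, 121 and 70.7 normalised CPM in restricted hens, most of it CHAD, and muscle markers to 253, 587 and 547 normalised CPM in ad libitum hens, against 589, 573 and 293 normalised CPM in restricted hens. Hen F1721 was highest for the ovary and the cartilage markers and lowest for muscle. It was also lowest for endothelial and pericyte markers, with 2761, 5485 and 5815 normalised CPM in ad libitum hens, against 4136, 3613 and 3410 in restricted hens. The part of all these markers in the matrix values was not tested.

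LOXL3 had the smallest feeding p of any member in adipose. It had 145, 149 and 126 normalised CPM in ad libitum hens, against 94.3, 78.4 and 57.4 normalised CPM in restricted hens, so the groups were well apart, with a log2 fold change of 0.85 ± 0.22 (SE) and FDR = 0.89. LOXL4 had 4.98, 1.6 and 2.0 normalised CPM in ad libitum hens, against 1.49, 0.849 and 1.3 normalised CPM in restricted hens, again without overlap and with hen F1721 well above the rest. LOX itself had 545, 194 and 177 normalised CPM in ad libitum hens, against 191, 218 and 222 normalised CPM in restricted hens, where hen F1721 was far above the rest and the remaining ad libitum hens were among or below the restricted ones.

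ADAMTSL2, which binds fibrillin microfibrils, had 121, 107 and 65.6 normalised CPM in ad libitum hens, against 61.7, 44.8 and 50.6 normalised CPM in restricted hens. Its groups did not overlap, and the log2 fold change was 0.88 ± 0.27 (SE) with FDR = 0.89. FBN2, the fibrillin of developing microfibrils, had 10.2, 9.39 and 13.3 normalised CPM in ad libitum hens, against 7.04, 7.77 and 5.82 normalised CPM in restricted hens and a log2 fold change of 0.65 ± 0.25 (SE), FDR = 0.907. FBN2 was also without overlap.

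Of the proteases, ADAMTS7, which cuts the cartilage protein COMP, had 67.8, 71.4 and 72.1 normalised CPM in ad libitum hens, against 56.2, 42.1 and 27.8 normalised CPM in restricted hens and did not overlap between groups. ADAMTS13 had 21.3, 11.3 and 13.5 normalised CPM in ad libitum hens, against 9.79, 10.4 and 5.98 normalised CPM in restricted hens, also without overlap. ADAMTS1 had 304, 1053 and 589 normalised CPM in ad libitum hens, against 206, 395 and 112 normalised CPM in restricted hens, where hen F6709 lay above hen F1721. Their log2 fold changes were 0.72 ± 0.26 (SE) for ADAMTS7, 0.79 ± 0.33 (SE) for ADAMTS13 and 1.43 ± 0.58 (SE) for ADAMTS1.

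No MMP reached p below 0.05 in adipose. MMP11, which is on the adipose feeding list, had groups that did not overlap, as 8.69% of all genes did. It was higher in ad libitum hens, with a log2 fold change of 0.98 ± 0.43 (SE) and FDR = 0.907 (edgeR). MMP2 had 613, 209.9 and 231 normalised CPM in ad libitum hens, against 235, 324 and 228 normalised CPM in restricted hens, with hen F1721 alone far above the rest. MMP1, the interstitial collagenase, had 49.1, 1.74 and 14.7 normalised CPM in ad libitum hens, against 2.04, 12.6 and 0.217 normalised CPM in restricted hens and a log2 fold change of 2.1 ± 1.39 (SE). Its groups overlapped widely, with hens F1723, F1724 and F6710 low and hens F1721, F1725 and F6709 high. The log2 fold change of MMP1 ran from 0.68 without hen F1721 to 4.27 without hen F6709.

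The inhibitors went in opposite directions in adipose. TIMP3 had 122, 159.7 and 137 normalised CPM in ad libitum hens, against 80.9, 113 and 90.5 normalised CPM in restricted hens, without overlap and with a log2 fold change of 0.53 ± 0.21 (SE), FDR = 0.907. TIMP4 had 32.5, 14.9 and 24.1 normalised CPM in ad libitum hens, against 51.1, 21.7 and 85.4 normalised CPM in restricted hens, lower in ad libitum hens with a log2 fold change of -1.17 ± 0.50 (SE), FDR = 0.907. For TIMP4 restricted hen F6709 lay inside the ad libitum range.

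Collagens of the fat leaned to the ad libitum side without reaching a small p, except COL11A1. That minor fibrillar chain had 6.01, 9.39 and 22.5 normalised CPM in ad libitum hens, against 4.24, 6.83 and 5.22 normalised CPM in restricted hens, a log2 fold change of 1.18 ± 0.49 (SE) with hen F1725 far above the rest and hens F1721 and F6709 overlapping. The log2 fold change of COL11A1 ran from 0.49 without hen F1725 to 1.52 without hen F1721. COL5A1 had 470.0, 303 and 307 normalised CPM in ad libitum hens, against 279, 283 and 159 normalised CPM in restricted hens, the only collagen in adipose whose groups did not overlap, with a log2 fold change of 0.56 ± 0.30 (SE). COL4A1 had 1216, 1859 and 1869 normalised CPM in ad libitum hens, against 1144, 1426 and 666 normalised CPM in restricted hens, and COL12A1 had 151, 68.5 and 74.6 normalised CPM in ad libitum hens, against 51.0, 78.2 and 16.1 normalised CPM in restricted hens. Hen F6710 was lowest for COL5A1, COL4A1 and COL12A1, and hen F6709 overlapped the ad libitum hens in the last 2.

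Laminin chains split. LAMB1 had 342, 359 and 236 normalised CPM in ad libitum hens, against 204, 228 and 177 normalised CPM in restricted hens, without overlap and higher in ad libitum hens by 0.60 ± 0.24 (SE) on the log2 scale. LAMA1, the early epithelial laminin chain, had 0.408, 1.21 and 1.09 normalised CPM in ad libitum hens, against 3.03, 1.74 and 4.4 normalised CPM in restricted hens, lower in every ad libitum hen with a log2 fold change of -1.78 ± 0.54 (SE), FDR = 0.89. LAMB3, a chain of epithelial anchoring laminin, had 8.76, 1.74 and 5.68 normalised CPM in ad libitum hens, against 21.7, 6.71 and 22.5 normalised CPM in restricted hens, a log2 fold change of -1.67 ± 0.65 (SE). LAMC3 had 0.446, 1.11 and 0.363 normalised CPM in ad libitum hens, against 1.93, 1.61 and 1.09 normalised CPM in restricted hens, a log2 fold change of -1.29 ± 0.53 (SE). The last 2 overlapped between groups, and LAMA1 and LAMC3 passed the filter through the restricted group only, at a few CPM.

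Epithelial and lung markers stood apart in 1 fat sample of the restricted group. Of the 11 genes of that list 7 carried a symbol, and their sum in adipose was 349, 6.73 and 17.6 normalised CPM in ad libitum hens, against 32.1, 1318 and 22.1 normalised CPM in restricted hens. The surfactant gene SFTPA had 0.0743, 0 and 5.09 normalised CPM in ad libitum hens, against 6.05, 306 and 3.75 normalised CPM in restricted hens, and EPCAM was at 0 in hen F1721. The sum was largest in hen F6709 and next in hen F1721, and 4 of the 7 genes were lower in ad libitum hens at an unadjusted p below 0.05. Of all genes 5.19% were at that p, 3.19% lower in ad libitum hens. The 7 genes are those named in the study's feeding or tissue lists, so that count is a description. LAMA1 and LAMB3 were higher in hens F1724 and F6710 than in hen F6709. The part of these markers in the laminin values was not tested. In all, 12 of 50 members had groups that did not overlap in adipose, 10 higher and 2 lower in ad libitum hens, where 8.69% of all genes did (4.92% higher and 3.77% lower). Of the 50, 30 are members through the adipose feeding list, so that count describes the list.

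In liver 34 of the 56 members were abundant enough to test, and 20 of 34 were positive, where 49.6% of all genes were. Of its 8 members at p below 0.05, 6 were higher and 2 lower in ad libitum hens. There were 2 without hen G6710 and 3 without hen G1723, beside 8.27% and 7.41% of all genes. Of the 8, 7 entered through the liver feeding list. ADAMTS proteases were 3 of the 8, and among the 7 ADAMTS proteases tested ADAMTS7, ADAMTS15 and ADAMTS19 passed the filter through the ad libitum group only. The 2 fibrillar collagens and the 2 lysyl oxidases tested were negative without reaching p below 0.05.

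ADAMTS17 had 16.9, 10.7 and 8.16 normalised CPM in ad libitum hens, against 4.16, 4.96 and 5.29 normalised CPM in restricted hens. Every ad libitum liver was above every restricted one, with a log2 fold change of 1.31 ± 0.32 (SE) and FDR = 0.324. ADAMTS5, an aggrecan-cutting protease, had 27.7, 38.6 and 44.3 normalised CPM in ad libitum hens, against 4.61, 27.9 and 14.9 normalised CPM in restricted hens, where hen G6709 met hen G1721 and hen G1724 was far below, with 1.23 ± 0.53 (SE). ADAMTS13, which liver stellate cells make in mammals, had 176, 290.2 and 248 normalised CPM in ad libitum hens, against 140.0, 186 and 173 normalised CPM in restricted hens, where hen G1721 overlapped the restricted hens, with 0.52 ± 0.23 (SE).

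MMP9 had 10.0, 7.19 and 3.9 normalised CPM in ad libitum hens, against 0.62, 4.78 and 1.1 normalised CPM in restricted hens and a log2 fold change of 1.71 ± 0.69 (SE), FDR = 0.346. Restricted hen G6709 overlapped hen G1725, and without hen G6709 the log2 fold change was 3.03 with an FDR of 0.0876. That fit called 104 of 10440 genes and put 22.1% of them at an unadjusted p below 0.05. MMP9 is on the liver feeding list and passed the filter in liver through the ad libitum group only, so its direction there was partly fixed. FBLN1 had 139, 199 and 132 normalised CPM in ad libitum hens, against 84.1, 137 and 68.1 normalised CPM in restricted hens, with hen G6709 inside the ad libitum range, and a log2 fold change of 0.70 ± 0.29 (SE). LUM had 27.1, 31.2 and 26.4 normalised CPM in ad libitum hens, against 58.2, 30.7 and 41.3 normalised CPM in restricted hens, a log2 fold change of -0.62 ± 0.25 (SE) with hens G1723 and G6709 overlapping. FBLN1 and LUM therefore stood on opposite sides.

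The laminin chains LAMC3 and LAMA2 did not overlap between groups in liver. LAMC3 had 4.39, 2.9 and 4.26 normalised CPM in ad libitum hens, against 6.11, 6.06 and 10.0 normalised CPM in restricted hens, a log2 fold change of -0.94 ± 0.32 (SE), FDR = 0.324. LAMA2, the laminin chain of muscle and Schwann cells, had 2.86, 2.9 and 7.09 normalised CPM in ad libitum hens, against 0.709, 2.85 and 1.46 normalised CPM in restricted hens, a log2 fold change of 1.35 ± 0.56 (SE), FDR = 0.357. For LAMA2 the lowest ad libitum and the highest restricted hen were almost level, and it passed the filter through the ad libitum group only. In all 3 of 34 members had groups that did not overlap in liver, with ADAMTS17 the remaining one, where 21.2% of all genes did.

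Among the liver collagens, COL1A2 had 39.5, 33.0 and 66.8 normalised CPM in ad libitum hens, against 45.3, 53.4 and 101 normalised CPM in restricted hens and COL6A2 had 106, 169 and 132 normalised CPM in ad libitum hens, against 201, 146 and 263 normalised CPM in restricted hens, with log2 fold changes of -0.52 ± 0.36 (SE) and -0.58 ± 0.27 (SE) and overlapping groups. Hen G6710 had the highest liver level for 14 of the 34 members (14.1% of all genes) and hen G1724 the lowest for 17 (29.4%). Endothelial and pericyte markers, all 7 with a symbol and none at 0, were also lowest in the liver of hen G1724, with a sum of 1028, 1058 and 997 normalised CPM in ad libitum hens, against 437, 1009 and 720.2 normalised CPM in restricted hens. They were not alone in this. The sums of liver, muscle, macrophage and granulocyte, and adipocyte markers were lowest there too, as were those of the matrix receptors and regulators listed below. For macrophage and granulocyte markers hen G6710 was almost level, at 1144 against 1140 normalised CPM. Fibroblast, cartilage, and epithelial and lung markers were not lowest in hen G1724. Without hen G1724 the positive members were 14 of 37 tested, where 50.3% of all genes were positive, and the part of any of these markers in that was not tested.

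Feeding differences were then compared between tissues by an interaction term. For ovary minus adipose 0 of 56 members passed an FDR of 0.1 (edgeR, smallest FDR 0.982, with 0.0% of 13233 genes called), and 2 were at an unadjusted p below 0.05, where 4.64% of all genes were. MMP13 differed by 4.24 ± 1.54 (SE) on the log2 scale, FDR = 0.982, and LAMC3 by 1.58 ± 0.69 (SE), FDR = 0.982. With the hen as a block LAMC3 and LAMB3 were the members at p below 0.05, and MMP13 differed by 3.55 ± 1.55 (SE) and was no longer at it (FDR = 0.907 for each of the 3). MMP13 passed the filter through the ad libitum ovaries alone, so its direction was partly fixed. It stayed below 1 normalised CPM in every adipose and liver library. MMP13 is a member through the ovary feeding list, and LAMC3 and LAMB3 are on the adipose feeding list, so these values are descriptions. The members with a positive log2 fold change in all 3 tissues were ADAMTS1, ADAMTS5, ADAMTS7, ADAMTS13, ADAMTS15, DCN, FBLN1 and MMP2. The share of all genes was not counted, and some of these values were small, such as 0.12 ± 0.61 (SE) for FBLN1 in adipose. ADAMTS13 had non-overlapping groups in ovary and adipose, and these tissues share their 6 hens.

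Other matrix genes were read from lists of neighbours in the same pathways. Their symbols could be read only where the study's feeding or tissue lists named them, so these genes were chosen in part by their feeding p-values and their counts are descriptions. Of 9 further matrix proteases and their inhibitors and activators tested in ovary (of 19 listed), 6 were at an unadjusted p below 0.05, all higher in ad libitum hens, where 4.85% of all genes were at that p. PLAU, the urokinase that activates plasmin, had 12.8, 10.1 and 15.7 normalised CPM in ad libitum hens, against 6.41, 5.85 and 4.17 normalised CPM in restricted hens. Every ad libitum ovary was above every restricted one for PLAU. CTSK, a collagen-cutting cathepsin, had 155, 174 and 251 normalised CPM in ad libitum hens, against 141, 80.4 and 54.9 normalised CPM in restricted hens, with hen M1724 close behind hen M1721. PLG, CTSB, RECK and HPSE were the other 4.

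In adipose the same list gave PLAT and CTSK higher and the protease trap A2M lower in ad libitum hens at p below 0.05 among 9 tested, where 5.19% of all genes were at that p. Of 4 collagen processing enzymes tested there, P4HA2 and P4HA3, which hydroxylate collagen prolines, were higher, and P4HA3 had 60.9, 64.7 and 45.2 normalised CPM in ad libitum hens, against 21.3, 39.9 and 19.0 normalised CPM in restricted hens. Of 13 other matrix proteins tested, THBS1, a thrombospondin, was higher with 222, 292 and 239 normalised CPM in ad libitum hens, against 104, 172 and 101 normalised CPM in restricted hens, and SPARCL1 was lower. Both P4HA3 and THBS1 had groups that did not overlap. Of 10 regulators CYR61 and FOSL2 were higher, and of 12 receptors ITGA11, a collagen-binding integrin.

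In liver, at an unadjusted p below 0.05, AGRN was higher among 9 other matrix proteins, the collagen hydroxylase P4HA1 higher and PCOLCE2 lower among 3 collagen processing enzymes, the inhibitor A2M higher among 9 proteases and inhibitors, TGFBR1 and ETS2 higher among 9 regulators, and the integrins ITGA6, ITGAV and ITGB6 higher among 11 receptors, where 13.7% of all genes were at that p. In ovary FMOD, a collagen-binding proteoglycan, was lower among 13 other matrix proteins and ITGB3 among 13 receptors. None of the listed genes passed an FDR of 0.1 in any tissue (edgeR).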

How the data were processed

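RNA of ovary, adipose and liver of 6 hens was sequenced on an Illumina HiSeq platform. The authors aligned reads that passed their quality trimming to Gallus_gallus-5.0 with TopHat2 2.1.1 and Bowtie2 2.0.6, and deposited the number of reads within each Ensembl gene as raw counts; how strand, mates and multiply aligned reads were handled is not given in the sources used here, so overlapping and paralogous genes stay uncertain.

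Within a tissue, genes that exceeded 1 CPM in all 3 libraries of either feeding group were tested with edgeR 4.0.16 (R 4.3.3): TMM, quasi-likelihood test, Benjamini-Hochberg adjustment over all genes tested, FDR below 0.1. Tissues were fitted over all 18 libraries with 13426 genes after the filter. Each interaction was fitted over the libraries of its pair of tissues alone. After the filter that left 13233 genes for ovary minus adipose, 12296 for liver minus adipose and 13139 for ovary minus liver. Fold changes are ad libitum over restricted, or the first tissue over the second; CPM are not divided by gene length, so levels were compared within a gene only. The filter kept 55 members in ovary (not LOXL4), 50 in adipose and 34 in liver, of which 52, 43 and 27 passed it in both feeding groups.

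Alternatives were likelihood ratio tests, DESeq2 1.42.0 without independent filtering, other scalings and filters, an FDR of 0.05, 1 fit of all libraries, each hen left out, and hen as a block. Hen numbers mark the same animal in every tissue, which pairs the tissues; over the 18 pairs of libraries of the same hen, deviations from group means correlated at -0.159 to 0.251 (median 0.0344, 8 of 18 above 0.1).

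Every hen's value is given for members at an unadjusted p below 0.05 for feeding in some tissue, for those past the FDR in an alternative and for the 2 of each role with the highest level. Members, gene lists and this rule were chosen with earlier results of these data known. Gene names were matched to RefSeq (GRCg7b, 55 of 56), used for names and neighbours only. A wider family of 107 RefSeq names could not be joined to the table and was not tested. Scripts were tested on simulated data.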

Additional observations from a re-analysis of the deposited data

Results flagged for a closer look

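ADAMTS17 was the member whose feeding groups did not overlap in 2 tissues, in opposite directions. Of all genes 21.2% had groups that did not overlap in liver and 8.69% in adipose, and the share in both with opposite directions was not counted. In liver it had 16.9, 10.7 and 8.16 normalised CPM in ad libitum hens, against 4.16, 4.96 and 5.29 normalised CPM in restricted hens. In adipose it had 1.11, 1.55 and 0.59 normalised CPM in ad libitum hens, against 1.6, 1.7 and 2.61 normalised CPM in restricted hens. All 3 ad libitum livers were above the restricted ones and all 3 ad libitum fat samples below them, with log2 fold changes of 1.31 ± 0.32 (SE) and -0.87 ± 0.45 (SE). In adipose hens F1723 and F1724 were almost level, at 1.55 and 1.6 normalised CPM, and the unadjusted p was 0.093 (edgeR). The interaction term, liver minus adipose, was 2.19 ± 0.56 (SE) with FDR = 0.73 (edgeR), and ovary minus liver was -1.91 ± 0.45 (SE) with FDR = 0.732. ADAMTS17 is a member through the liver feeding list alone, and both terms use those same livers, so their values are descriptions. These 2 interactions were added after the opposite order was seen, and ADAMTS17 passed the filter in adipose through the restricted group only. With the hen as a block to pair the tissues the first was 2.19 ± 0.49 (SE) with FDR = 0.925.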

How the results depend on the processing

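The count of members called for feeding, 0 in every tissue, became 6 in adipose, 4 in liver and 5 in ovary in the likelihood ratio test with trended dispersions, beside 2.93%, 3.82% and 1.9% of all genes. It became 1 in liver (ADAMTS17) both in that test with gene-wise dispersions and in DESeq2, beside 1.41% and 2.33% of all genes. The cause was not tested. The 6 in adipose were ADAMTS1, COL12A1, MMP1, LAMA1, LAMB3 and TIMP4, the 4 in liver ADAMTS5, ADAMTS17, LAMA2 and MMP9, and the 5 in ovary MMP13, MMP10, MMP7, MMP9 and FBLN1. All of these are on the feeding list of that tissue, so the names describe the lists. MMP1 and LAMA1 in adipose, LAMA2 and MMP9 in liver, and MMP13 and MMP7 in ovary passed the filter only through the group where they were higher. With a hen left out the count of members called ranged from 0 to 1 in liver and stayed 0 in ovary and adipose. Leaving out hens reversed log2 fold changes in ovary for COL1A2 (-1.14 to 0.84), COL5A1 (-0.78 to 1.29), COL4A1 (-1.35 to 1.02), COL4A2 (-1.33 to 1.25), COL6A2 (-0.66 to 1.11), COL6A3 (-0.75 to 1.31), COL12A1 (-1.03 to 1.71), LOX (-0.84 to 1.20), LOXL3 (-0.032 to 1.30) and DCN (-0.057 to 1.30), and in adipose for MMP2 (-0.27 to 0.65) and LOX (-0.20 to 0.79). Over the leave-outs the positive members ran from 20 to 46 in ovary, 29 to 41 in adipose and 14 to 23 in liver, and those at an unadjusted p below 0.05 from 2 to 30 in ovary (fewest without M6710, most without M1724, beside 1.97% and 16.3% of all genes), 5 to 16 in adipose (fewest without F1724 or F6710, most without F6709, beside 3.6%, 3.77% and 14.9%) and 2 to 9 in liver (fewest without G6710, most without G6709, beside 8.27% and 22.1%); both counts were chosen after seeing the data. Of the 972 alternative values of 76 single results, 941 kept direction and side of the threshold, 18 newly passed it, 1 no longer did and 12 turned. With hen as a block to pair the tissues, 7 of the 33 members outside the tissue lists were higher and 13 lower in ovary than in adipose, 21 and 3 in ovary against liver, and 20 and 3 in adipose against liver, where 6 and 13, 22 and 4, and 20 and 3 were without it, and 0 interactions passed either way. The feeding comparisons within a tissue share no hen between groups and have no pairs.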
